A study of Homarus americanus with 19 samples.

Results

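LOC121874308, whose annotated name is "sodium-dependent nutrient amino acid transporter 1-like", was examined in whole American lobster (Homarus americanus) larvae. It is 1 of 25667 genes of the Kallisto table, and it was chosen by its values in methylnaphthalene and control larvae, since it had the smallest p of that contrast in an earlier ranking of the same data. RNA-seq libraries came from 6 control larvae kept in seawater filtered at 0.22 µm, 6 larvae given 1-methylnaphthalene at 0.3 mg/L (the study's positive control), and 7 larvae held in 72% WAF, the water accommodated fraction of crude oil. Exposures lasted 24 h, each library was 1 whole larva, and the labels give the stage as embryonic day 9 while the study's methods call the animals stage I larvae. WAF is a mixture extracted from oil into water, whereas 1-methylnaphthalene is a single polycyclic aromatic hydrocarbon, and only 1 dose of each was sequenced. The study's methods give the 1-methylnaphthalene dose as 0.3 mg/L, while its supplement gives a somewhat higher concentration.

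Nutrient amino acid transporters belong to the SLC6 family, membrane proteins that use the sodium gradient to carry amino acids or neurotransmitters into cells. In insects such as Drosophila and mosquitoes, members of the nutrient amino acid branch take up essential amino acids, with prominent expression in the gut. Their function in the American lobster is taken here from the annotation only, and the name could not be checked against the protein sequence.

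The RefSeq annotation of GMGI_Hamer_2.0 gives LOC121874308 as a protein-coding gene that spans 6648 bases, introns included, on a sequence that the gene list does not name. It has 1 transcript row in the Kallisto table, XM_042378407.1, so the value of that row and the sum per gene are the same number and there is no isoform usage to describe. The estimated count was a whole number, within 1e-06, in all 19 larvae, although 54.4% of all values in the table have decimals. No other gene had the same counts. Total counts per larva ran from 14295653 to 44466373, and the values below are CPM, the gene's counts per 1000000 counts of the larva.

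LOC121874308 was a weakly expressed gene in control larvae. It had 2.86, 0.903, 1.56, 3.03, 3.79 and 4.04 CPM in control replicates 1 to 6, from 22 to 130 counts. The lowest of these, in replicate 2, has a 95% exact Poisson interval of 0.566 to 1.37 CPM, which covers counting error only, as do all such intervals here. Control larvae thus spanned 4.48-fold, and their coefficient of variation of 45.8% was above the 11.7% that counting error alone gives at their mean count.

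In methylnaphthalene larvae the gene stood at 136, 108.5, 103.6, 201, 161 and 188 CPM in replicates 1 to 6, from 2441 to 6859 counts. Every one of these larvae was above every control larva, and the lowest was 25.6-fold above the highest control. The control mean was 2.70 ± 1.24 CPM (SD, n = 6) and the methylnaphthalene mean 149.6 ± 40.6 CPM (SD, n = 6), which is 55.4-fold higher. The fitted log2 fold change was 5.80 (standard error 0.497), beside a median of -0.02 over all genes tested. These values are the ones that chose the gene and are given as a description without a test. Every methylnaphthalene larva was above every control larva for 4.51% of 18727 genes tested. Among all genes tested, 12 had a larger fitted increase, 8 of which had a mean of at least 1 CPM.

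WAF larvae ranged from values within the control range to values well above it. They had 5.39, 3.42, 2.62, 10.2, 3.32, 25.9 and 11.6 CPM in replicates 1 to 7, with a mean of 8.91 ± 8.26 CPM (SD, n = 7). Of the 7 larvae, 4 were above the highest control larva and 3 lay within the control range. The median WAF larva, at 5.39 CPM, was 1.83-fold above the median control larva, while the ratio of the means was 3.30, and replicate 6 was far above the rest. All 7 WAF larvae were below all methylnaphthalene larvae, the lowest of which was 4.01-fold above WAF replicate 6. Methylnaphthalene larvae lay above all 13 other larvae for 89 genes, which is 0.475% of those tested, and no other gene showed as wide a gap when 0.5 CPM was added to each value. The methylnaphthalene and control values in this ranking are those that chose the gene, so it is a description only. Since whole larvae were sequenced, more RNA per cell and more cells that express the gene cannot be told apart.

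**Figure D1:**
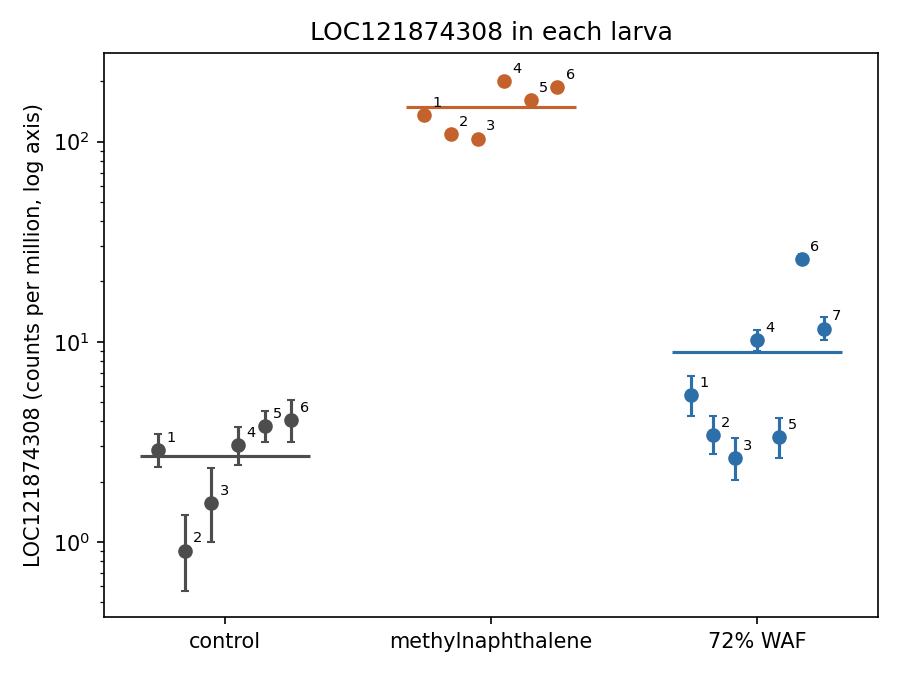
LOC121874308 in each larva, in CPM on a log axis, for control, methylnaphthalene and 72% WAF larvae. Points are larvae marked with their replicate number, bars are 95% Poisson intervals for counting error, and horizontal lines are group means (2.70, 149.6 and 8.91 CPM). The methylnaphthalene larvae sit between 103.6 and 201 CPM, while the WAF larvae spread from 2.62 to 25.9 CPM.

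The WAF larvae were not used to choose the gene, and WAF was tested against control in 1 fit of all 19 larvae. The control larvae were used in that choice, so the p-values with WAF are not free of it. The log2 fold change was 1.75 (standard error 0.421) with an adjusted p of 0.115 by edgeR's quasi-likelihood test, and the gene was not a differentially expressed gene (DEG), for which an absolute log2 fold change above 1.5 and an adjusted p below 0.05 were required. By this rule 0.117% of the genes tested were DEGs with WAF (0.0107% higher and 0.107% lower). In a two-sided exact permutation test of the 1716 splits of these larvae, the difference in mean CPM, the planned measure, had p = 0.0594. For mean log2(CPM + 0.5), which was not in the plan, the exact permutation p was 0.0361. With TMM library sizes, which correct for differences in library composition, 6 of 7 WAF larvae were above the highest control larva. The exact permutation p for the log2 values was then 0.0152, also not in the plan. These permutation p-values were not adjusted for the several versions.

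The call with WAF depended on the test and on whether the share of counts on non-coding rows entered as a covariate. It did not change without TMM or over rows other than XR_ (adjusted p = 0.318 and 0.122, quasi-likelihood test). DESeq2 (adjusted p = 0.00434) and edgeR's likelihood ratio test (adjusted p = 0.00919) both called the gene, as did the quasi-likelihood fit with the share of counts on non-coding rows as a covariate (log2 fold change 1.91, standard error 0.362, adjusted p = 0.0134), a fit chosen after the data were seen, in which 0.4% of the genes tested were DEGs. Over the other alternatives that kept all larvae of the groups compared, the adjusted p ran up to 0.318. Without WAF replicate 6 the log2 fold change was 1.30, and without replicates 6 and 7 it was 1.13 (standard error 0.346, adjusted p = 0.0924 by the quasi-likelihood test).

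**Figure D2:**
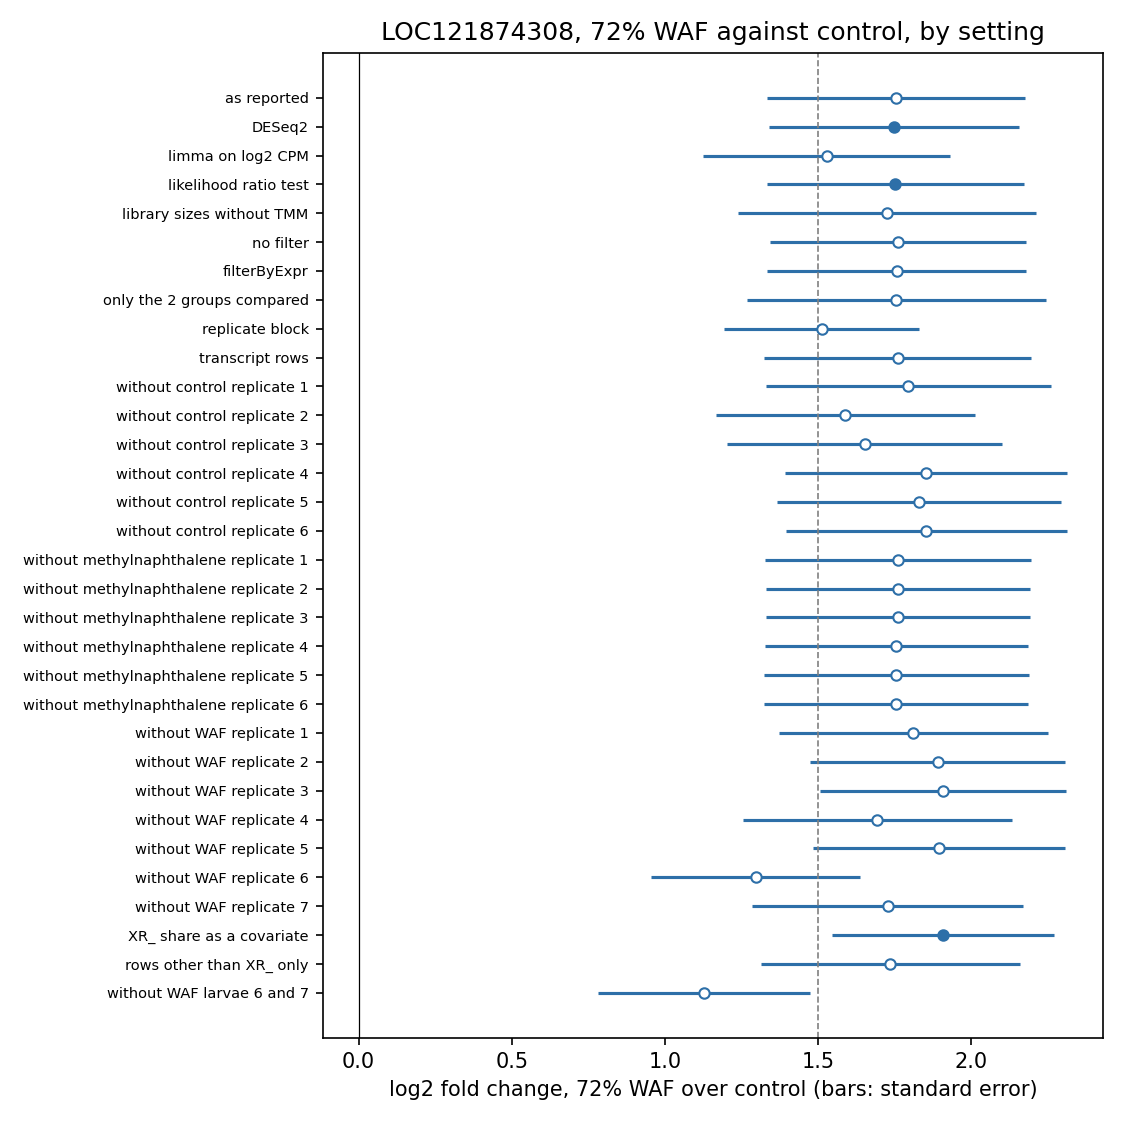
Log2 fold change of LOC121874308 between 72% WAF and control larvae as reported and under each alternative (x axis), with standard errors as bars. Filled points passed both DEG thresholds and open points did not, the dashed line marks a log2 fold change of 1.5, and all values are above 0, from 1.13 to 1.91.

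The larvae also differed in how much of their RNA-seq library lay on XR_ rows, the RefSeq prefix for predicted non-coding RNAs. These are 5287 of the 46006 rows, and a single one of them took 16.2% of all counts. The XR_ share was 22.4% ± 4.45 (SD, n = 6) in control larvae, 23.4% ± 8.58 (SD, n = 6) in methylnaphthalene larvae and 28.9% ± 8.56 (SD, n = 7) in WAF larvae. In two-sided exact permutation tests the share differed from control with p = 0.803 for methylnaphthalene and p = 0.118 for WAF (adjusted p = 0.803 and 0.237 over both tests), which is within the spread between larvae. Without WAF replicate 6 the WAF difference grew from 6.53 to 8.87 percentage points (exact p = 0.0303). Without the single largest XR_ row it fell to 0.663 percentage points (exact p = 0.341), with mean shares of 9.48% in control and 10.1% in WAF larvae.

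Within both exposed groups the larvae fell on either side of a wide gap in XR_ share, and in plain CPM LOC121874308 was higher on the side with the low share. The 3 methylnaphthalene larvae with shares of 15.2% to 16.5% had 161 to 201 CPM, and the 3 with shares of 26.3% to 35.1% had 103.6 to 136 CPM. The 2 WAF larvae with shares of 14.9% and 18.3% had 25.9 and 11.6 CPM, and the 5 with shares of 32.2% to 35.7% had 2.62 to 10.2 CPM. The control larvae with shares of 17.8% to 19.2% had 1.56 to 4.04 CPM and those with shares of 24.6% to 28.9% had 0.903 to 3.03 CPM, which overlapped. The separation in the exposed groups was not kept with TMM library sizes. In that unit the methylnaphthalene sides ran from 131 to 180 and from 115 to 148 CPM, and the WAF sides from 9.77 to 22.3 and from 3.05 to 11.3 CPM, so both overlapped, as they also did in CPM over rows other than XR_. On the low side WAF larvae lay above the control larvae and below the methylnaphthalene larvae without overlap, whereas on the high side the lowest WAF larva was within the control range.

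Pearson's r between log2(CPM + 0.5) and XR_ share was -0.85 in WAF larvae (n = 7, rho = -0.75, two-sided exact permutation p = 0.00635 and 0.0663) and -0.86 in methylnaphthalene larvae (n = 6, rho = -0.77, exact p = 0.0486 and 0.103). In control larvae it was -0.20 (n = 6, rho = -0.31, exact permutation p = 0.665 and 0.564). After Benjamini-Hochberg adjustment over these 6 values, only r in WAF larvae passed (exact permutation test, adjusted p = 0.0381, against 0.133 in methylnaphthalene larvae). It no longer passed when the largest XR_ row was left out of the share (r = -0.59, exact permutation p = 0.167). The relation in WAF larvae rests on replicates 6 and 7, without which r was -0.37, while in methylnaphthalene larvae r was -0.90 when the 2 larvae at the greatest distance from the median share were left out. No pooled r is given, since the groups differ in level. An r at or below that of LOC121874308 was found for 33.0% of all genes tested in WAF larvae and for 35.2% in methylnaphthalene larvae, so such a relation was common in these libraries.

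XR_ counts are part of the total by which CPM is scaled, so the XR_ share and the CPM of other rows are not separate measures. How much of the relation between LOC121874308 and XR_ share comes from this scaling was not tested. With CPM computed over rows other than XR_, r was -0.66 in methylnaphthalene larvae (exact permutation p = 0.182) and -0.80 in WAF larvae (exact p = 0.0188). With TMM library sizes it was -0.54 (exact p = 0.243) and -0.77 (exact p = 0.0343), and none of these permutation p-values were adjusted. In these units the methylnaphthalene larvae varied less, with a coefficient of variation of 17.6% with TMM in place of 27.1%. A test of whether the slope on XR_ share differed among the groups was fitted across all genes with edgeR, after the data were seen. For LOC121874308 this quasi-likelihood test gave an unadjusted p of 0.0984 and an adjusted p of 0.571.

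**Figure D3:**
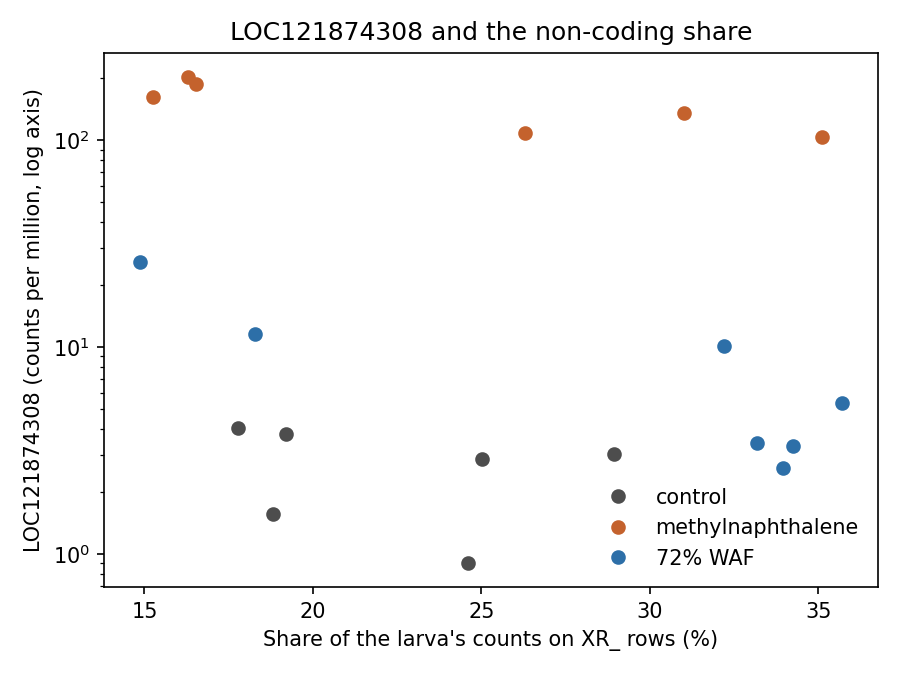
LOC121874308 in CPM (log axis) against the share of each larva's counts on XR_ rows in percent, for control, methylnaphthalene and 72% WAF larvae. Each point is 1 larva. Methylnaphthalene larvae lie at or above 103.6 CPM at every XR_ share, and the 2 WAF larvae with shares under 20% have 11.6 and 25.9 CPM.

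The Seq2Fun table was made from the same reads by translated search and has an ortholog group with the same name, s2f_0000062040. It was found by its name in the study's results for methylnaphthalene against control, so its values there are no independent support. The files do not say which lobster genes its reads came from. Control larvae had 56.0 to 147 CPM of the Seq2Fun total, methylnaphthalene larvae 304 to 374 CPM and WAF larvae 75.9 to 116 CPM. Methylnaphthalene larvae lay above all others, while all WAF larvae were within the control range. The fitted log2 fold changes of the ortholog group were 1.74 with methylnaphthalene (standard error 0.251) and -0.03 with WAF (standard error 0.236), and are given as a description because they come from the larvae that chose the gene.

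Raw counts of the gene and of the ortholog group were close in methylnaphthalene larvae and far apart in the others. Per 100 Seq2Fun counts of s2f_0000062040, Kallisto gave LOC121874308 between 91.2 and 113 counts in methylnaphthalene larvae, between 2.12 and 15.8 in control larvae and between 7.10 and 56.3 in WAF larvae. The highest WAF value was again in replicate 6. Among control larvae, replicates 5 and 6 had the highest LOC121874308 (3.79 and 4.04 CPM) and the lowest ortholog group values (68.7 and 56.0 CPM), so both measures did not rank these larvae alike.

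**Figure D4:**
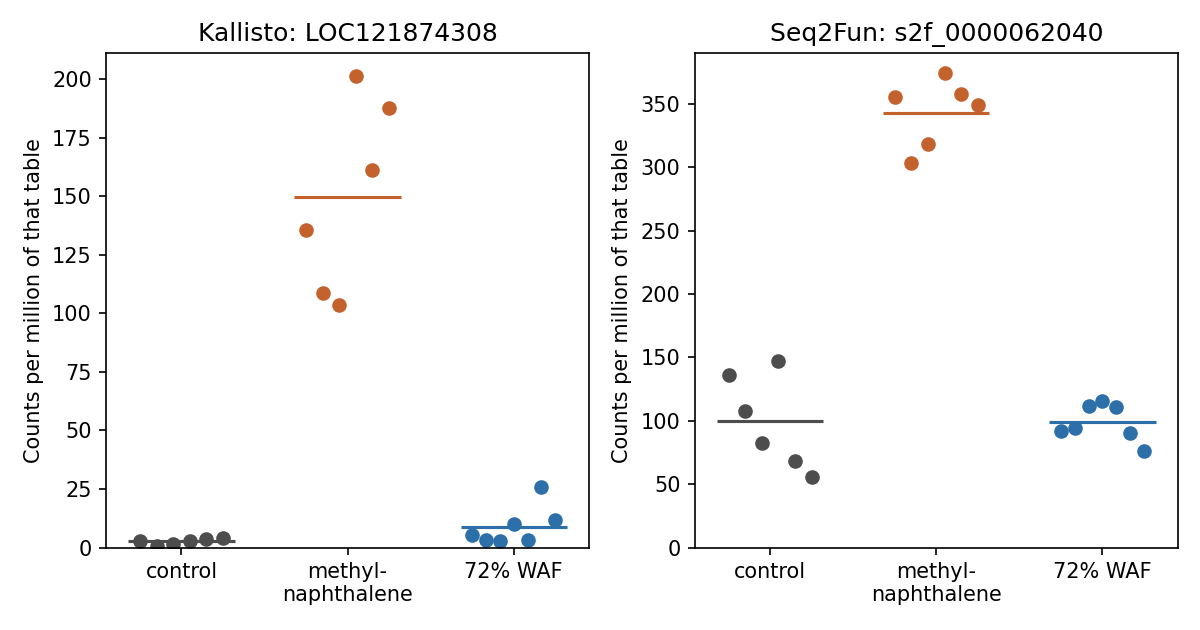
CPM of LOC121874308 in the Kallisto table (left) and of the ortholog group s2f_0000062040 in the Seq2Fun table (right), each scaled to the total of its own table. Points are larvae and lines are group means. Methylnaphthalene larvae are highest in both, but control larvae have 0.903 to 4.04 CPM on the left and 56.0 to 147 CPM on the right.

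Other transporters of the same kind could be named only from the part of the study's gene list at hand, which covers 1999 genes sorted by their difference between methylnaphthalene and control larvae. Their calls with methylnaphthalene are therefore set by how they were found, and only their values are of interest. This list names 4 further SLC6-type genes. The dopamine transporter-like gene LOC121880300, named for the carrier that recovers dopamine at synapses, had at most 2 counts in any control larva, 3 to 46 counts in methylnaphthalene larvae and, among WAF larvae, counts only in replicates 6 and 7 (0.562 and 0.251 CPM). The neutral and basic amino acid transporter B(0+)-like gene LOC121872485, named for a broad amino acid importer, likewise had at most 2 counts in control larvae and 2 to 67 in methylnaphthalene larvae. The acetylcholine transporter-like gene LOC121880301 had 0.110 to 0.513 CPM in control larvae and 0.565 to 2.56 CPM in methylnaphthalene larvae. A second B(0+)-like gene, LOC121861546, was measured well in all groups, with 11.8 to 20.5 CPM in control, 15.8 to 37.4 CPM in methylnaphthalene and 10.5 to 18.9 CPM in WAF larvae, which overlapped.

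Of these 4 SLC6-type genes, 3 passed the DEG thresholds with methylnaphthalene, where 3.87% of all genes tested did (3.71% higher and 0.166% lower). With WAF 0 of them passed, where 0.117% of all genes tested did (adjusted p of 0.516 to 0.78 by edgeR's quasi-likelihood test). With methylnaphthalene their median log2 fold change was 3.20, or 2.24 when the 2 genes with 3 counts or fewer in every control larva are set at their lower bounds against 3 counts per library. The median over all genes tested was -0.02. The other 3 DEGs reached at most 2.56 CPM in any methylnaphthalene larva, so their values rest on far fewer counts than those of LOC121874308.

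The same list names 4 amino acid transporters of other families, and their highest WAF values were in replicates 6 and 7. They are the AVT1D-like gene LOC121860784 and the AVT1B-like gene LOC121860783, named for vacuolar amino acid transporters of plants and yeast, the cationic amino acid transporter 3-like gene LOC121853517, named for a carrier of arginine and lysine, and the pathetic-like gene LOC121872614, named for a proton-coupled transporter linked to growth in Drosophila. LOC121860784 had 29.0 and 12.9 CPM in WAF replicates 6 and 7 and 0.483 to 2.16 CPM in the other WAF larvae. LOC121872614 had 48.9 and 22.0 CPM in these larvae against 0.531 to 3.80 CPM. With methylnaphthalene, which set the order of the list they were drawn from, 3 of the 4 genes were DEGs (median log2 fold change 2.88) beside 3.87% of all genes tested. With WAF 0 were, beside 0.117% of all genes tested (median 1.01, adjusted p of 0.608 to 0.87).

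These 4 genes had a negative r with the XR_ share within every group, control larvae included. Over control larvae their r with XR_ share ran from -0.77 to -0.88 (n = 6), where that of LOC121874308 was -0.20. Over WAF larvae it ran from -0.97 to -0.98 (n = 7) beside -0.85. An r at or below that of LOC121874308 was found for 64.4% of all genes tested in control and 33.0% in WAF larvae. The share of genes at the level of these 4 was not computed. The 4 other SLC6-type genes were also negative in every group, with r from -0.35 to -0.84 in control and from -0.38 to -0.97 in WAF larvae. These r values are descriptions over libraries that share their normalization. In WAF larvae with XR_ shares of 32.2% or more, LOC121874308 had at least 2.62 CPM, above the control median in 4 of 5 larvae, whereas LOC121872614 was below its own control median of 3.09 CPM in 4 of those 5 larvae.

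**Figure D5:**
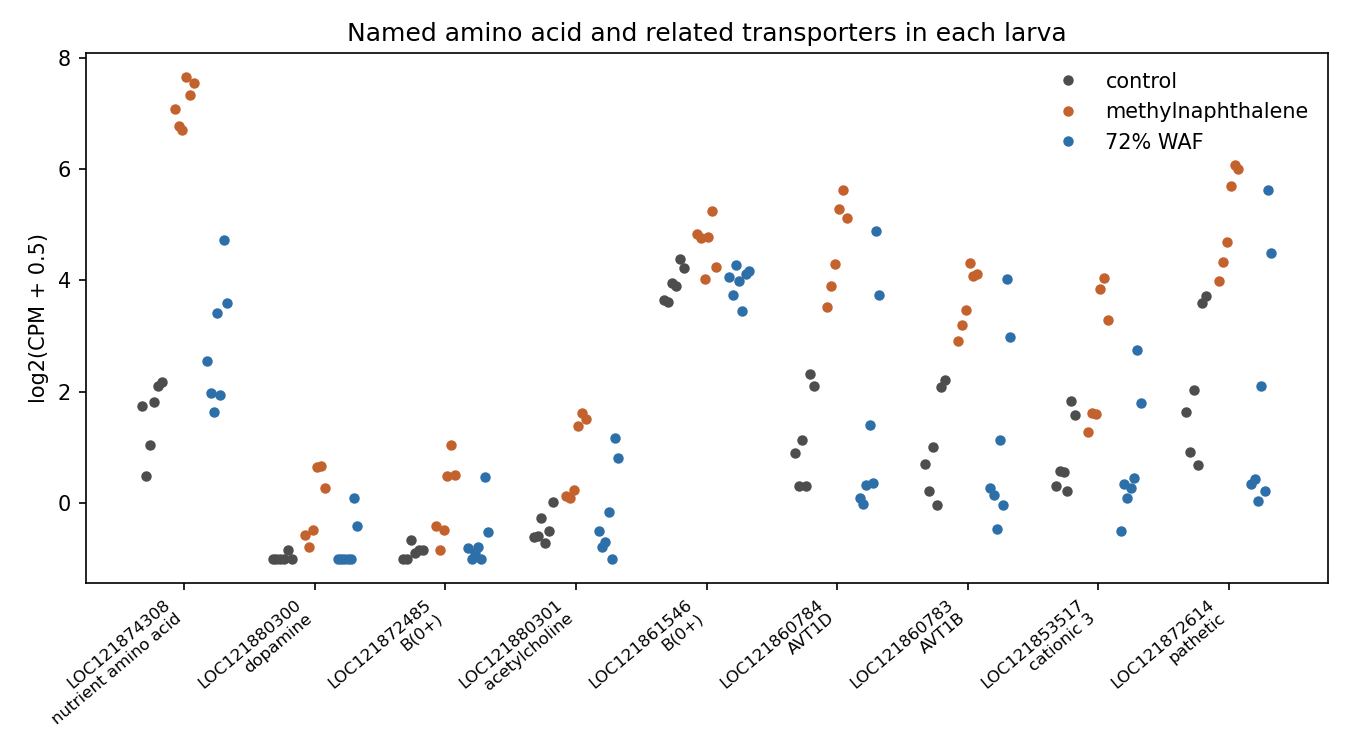
LOC121874308 and the 8 other named SLC6-type and amino acid transporter genes in each larva, as log2(CPM + 0.5) on a common axis, with control, methylnaphthalene and 72% WAF larvae side by side. Levels are not scaled for transcript length, so genes should be compared by the spread between groups and not by height. For LOC121874308 the methylnaphthalene larvae stand clear of all others, while for the AVT1-like and pathetic-like genes WAF replicates 6 and 7 reach into the methylnaphthalene range.

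The genes most like LOC121874308 over all 19 larvae were sought among 15162 other genes with a mean of at least 1 CPM, by Pearson's r of log2(CPM + 0.5). Since the groups differ in level, such an r mainly reflects the contrast that chose the gene. The closest was LOC121876286 (r = 0.967), a baculoviral IAP repeat-containing protein 7-like gene, of a family that inhibits cell death, with 1.09 to 1.54 CPM in control, 0.72 to 5.71 CPM in WAF and 11.5 to 22.1 CPM in methylnaphthalene larvae. It was followed by the uncharacterized genes LOC121867548 (r = 0.963) and LOC121874996 (r = 0.959). Next came LOC121878167 (r = 0.956), named as a glycine-forming 2-amino-1-hydroxyethylphosphonate dioxygenase-like gene, and LOC121856847 (r = 0.956), a sulfotransferase 1A1-like gene of the kind that adds sulfate to small molecules. LOC121856847 had 33.1 to 47.4 CPM in control and 70.3 to 90.6 CPM in methylnaphthalene larvae.

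When r was averaged over the 3 groups, so that differences between groups did not enter, other genes came first. These were LOC121854691 (mean r = 0.914), LOC121879224 (0.913), LOC121875113 (0.912), LOC121872890 (0.91) and LOC121853471 (0.903), none of which has a description in the list at hand other than uncharacterized. Only LOC121879224 was also a DEG with methylnaphthalene, at 27.2 to 74.7 CPM against 2.92 to 7.63 CPM in control larvae. The levels of LOC121854691 overlapped among the groups, with 45.5 to 52.1 CPM in control, 37.2 to 53.2 CPM in methylnaphthalene and 42.3 to 54.0 CPM in WAF larvae. Like LOC121874308, these within-group genes all fell with XR_ share in the exposed groups. Their r with it ran from -0.79 to -0.95 in methylnaphthalene and from -0.87 to -0.96 in WAF larvae. Whether their likeness goes beyond the XR_ share was not tested.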

How the data were processed

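RNA from 19 whole larvae was sequenced, 1 library per larva. The authors quality-filtered the reads and deposited expected counts (Kallisto estimates for each RefSeq transcript of GMGI_Hamer_2.0), and raw counts per Seq2Fun ortholog group of the Crustaceans database. Neither table was normalized. Columns were matched to larvae by the names in the labels. All 46006 transcripts were assigned to genes through the RefSeq gene list, summed per gene and rounded.

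Genes with fewer than 4 counts in total, and those at or under the 15% quantile of the interquartile range of counts, were removed, which left 18727 genes. The main test was edgeR 4.0.16's quasi-likelihood test in R 4.3.3 with TMM library sizes, fitted to all 19 larvae at once with no covariate and with Benjamini-Hochberg adjustment over all genes tested. Each standard error is the log2 fold change divided by the square root of its F statistic. The script was tested on simulated data. The study's methods name limma, which was run as an alternative (3.58.1) beside DESeq2 1.42.0, other filters, library sizes and sets of larvae. Single values were compared by exact permutation tests in Python 3.11 with numpy 2.4.6 and scipy 1.17.1.

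The gene, lists and tests were chosen with earlier results of these data known. Named genes are LOC121874308, the 5 genes most correlated with it over all larvae and the 5 most correlated within groups, and the transporters that the available part of the study's gene list names. Finding relatives by protein sequence, and lists of digestive, muscle and cuticle markers, could not be run, because protein sequences were not used here and descriptions were at hand only for the genes that changed most. The replicates are separate larvae, but nothing says whether they shared a tank or clutch, so p-values measure the spread between these larvae.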

Additional observations from a re-analysis of the deposited data

Results flagged for a closer look

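In a search for single larvae that stand apart, 63 sets of values were examined. They were the named genes, the ortholog group and the XR_ share, in each group. Chance alone would single out about 1 in 20 of independent sets, but these sets are not independent. The search found 6 values, all in plain CPM, and 4 of them were the highest WAF value, in WAF replicate 6. They were 25.9 CPM of LOC121874308, 5.71 CPM of the IAP repeat gene LOC121876286, 10.9 CPM of LOC121853471 and 0.877 CPM of the B(0+)-like gene LOC121872485. The others were methylnaphthalene replicate 5 with 22.1 CPM of LOC121876286, and control replicate 5 with 0.0583 CPM of LOC121880300, which is 2 counts in the only control larva with any. LOC121876286 and LOC121853471 were named because they correlate with LOC121874308, so their peak in the same WAF larva follows in part from that choice. WAF replicate 6 had the deepest library (44466373 counts) and the lowest XR_ share of its group (14.9%), and the part of either in these values was not tested.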

How the results depend on the processing

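The log2 fold change of LOC121874308 with WAF was above 0 under every alternative. It became a DEG with DESeq2 (1.75), the likelihood ratio test (1.75) and XR_ share as a covariate (1.91), and with 1 larva left out it ran from 1.30 to 1.91 without a change of call. With the replicate number as a block it was 1.51 (adjusted p = 0.0948). Deviations from the group means of same-numbered larvae had correlations from -0.36 to 0.60, above 0.1 in 12 of 18 pairs. Larvae with different numbers were not compared, so whether the numbers do more than name larvae was not tested. With methylnaphthalene the fitted value stayed between 5.63 and 5.92. Of the 4 other SLC6-type genes, 1 was a DEG with methylnaphthalene after filterByExpr and 0 as transcript rows. With 1 larva left out there were 1 to 3, and 1 without control replicate 1, control replicate 2 or methylnaphthalene replicate 5. The r of LOC121874308 with XR_ share in methylnaphthalene larvae did not pass after adjustment (exact permutation test, adjusted p = 0.133). Its unadjusted exact permutation p rose to 0.05 or above over rows other than XR_ (r = -0.66) and on CPM (-0.85). The same held with TMM (-0.54) and without the largest XR_ row (-0.83). With 1 larva left out r ran from -0.91 to -0.77, and the unadjusted p was above 0.05 without replicate 3, 4, 5 or 6. In WAF larvae r was -0.59 without the largest XR_ row (unadjusted exact permutation p = 0.167), which ended the call. These alternatives were judged on unadjusted p. Whether the adjusted call in WAF larvae holds with TMM or over rows other than XR_ was therefore not tested. In control larvae r ran from -0.49 to 0.045, turning sign without replicate 6. With 1 larva left out, the difference in XR_ share ran from -1.31 to 2.66 percentage points with methylnaphthalene, negative without replicate 1 or 3, and from 5.40 to 8.87 with WAF, and without the largest XR_ row it was 0.392 and 0.663. For r, the TMM and largest-row versions, and for the fold change the XR_ covariate, the fit over rows other than XR_ and the fit without WAF replicates 6 and 7 were chosen after seeing the data. The share of each transcript row had no alternative, since there is 1 row. The fewest counts of LOC121874308 were the 22 of control replicate 2, which leave the value of that larva uncertain. Fold changes of SLC6-type genes with 0 to 2 control counts are bounds only.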
